A study of Homo sapiens with 2 samples.

Results

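The mitochondrial ribosomal protein genes were examined in HT29 cells after transfection of an siRNA against *REG4*, a gene for a secreted lectin, or of a control siRNA. They were chosen by symbol, as named genes that begin with MRPL (large subunit) or MRPS (small subunit) followed by a digit, with pseudogenes left out. The array named 73 such genes among 14812 named genes in all, of which 48 were *MRPL* and 25 were *MRPS* genes, and RefSeq lists all 73 as protein-coding. HT29 is an established human colon cancer cell line, and the series holds 2 arrays of it, 1 per group (siREG4 and siControl). The title of the siREG4 array names *REG4* as the target, whereas 1 of its other labels names GATA6. No probe set carried the symbol *REG4*, so the knockdown could not be checked on its own transcript.

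The deposited log2 values were centred on the median of the 2 arrays in each probe set, the group of short probes that measures 1 transcript. Each gene therefore carries 1 number, given here as siREG4 minus siControl, and no signal level. A single array per group leaves no replicate spread and allows no test, and every difference below describes these 2 arrays. Since there are no levels, the identity of the cells could not be checked against marker genes, and fewer cells that use a gene and less of its RNA per cell cannot be told apart. These genes were chosen with earlier results of this comparison known, so their differences are given as a description.

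Mitochondria translate the few proteins encoded by their own DNA, all of them subunits of the respiratory chain and ATP synthase, on a ribosome of their own. The RNA of this ribosome comes from mitochondrial DNA, whereas its proteins are encoded in the nucleus, made in the cytosol and imported. About these proteins it is known that some descend from bacterial ribosomal proteins and others occur only in mitochondrial ribosomes. The large subunit joins amino acids into the chain and passes it to the inner membrane, and the small subunit reads the mRNA.

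Most mitochondrial ribosomal protein genes lay below 0, but few by much. Of the 73 genes, 60 were lower in the siREG4 array, 11 were higher and 2 were at exactly 0, whereas 48.7% of all named genes were below 0. Their median difference was -0.17 on the log2 scale, against 0 for all named genes and also for protein-coding genes. Lower past 1.4-fold, the threshold in the methods of the study, were 3 of the 73 genes, where 1.67% of all named genes passed. Higher past 1.4-fold were 0 genes, where 1.51% of all named genes passed. At 1.2-fold, 22 were lower and 1 was higher, beside 7.04% and 5.95% of all named genes. Past 2-fold there were 0 members in either direction, beside 0.0878% of all named genes lower and 0.176% higher.

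**Figure D1:**
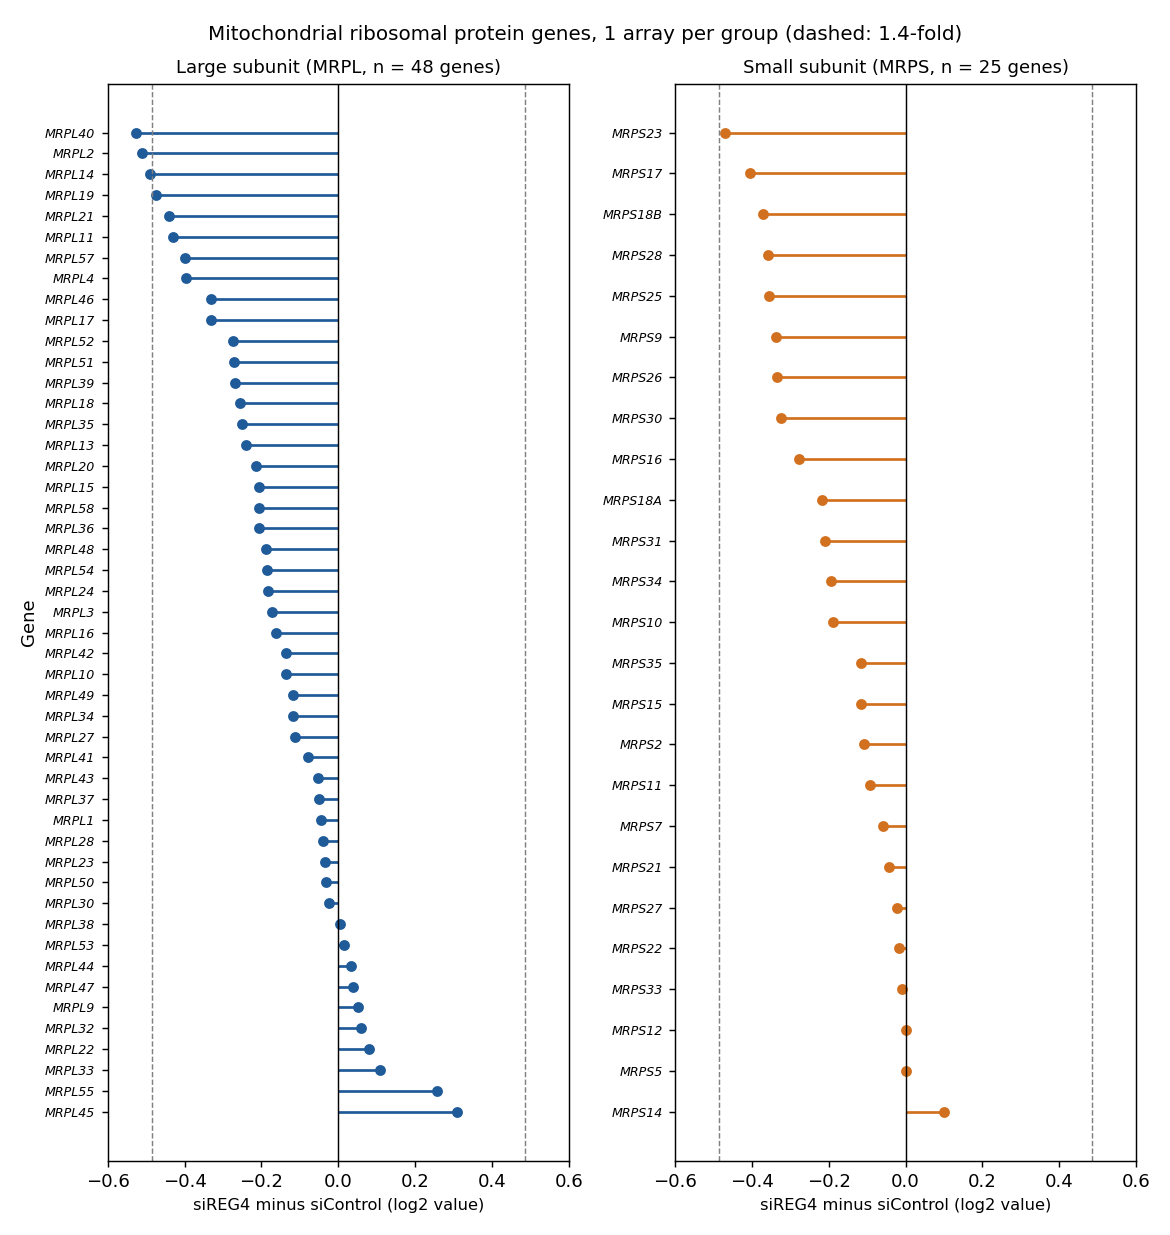
Difference between the siREG4 and siControl arrays (log2 value, x axis) for each of the 48 *MRPL* and 25 *MRPS* genes, sorted within each subunit. Each point is 1 gene from 1 array per group, and dashed lines mark 1.4-fold; 3 *MRPL* genes lie past the lower line and none past the upper one.

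The 3 genes past 1.4-fold all belonged to the large subunit. *MRPL40*, a protein of the central protuberance at the top of the large subunit, was at -0.26 in the siREG4 array and 0.26 in the siControl array, a difference of -0.53 (1.44-fold lower). It ranked 197th from the lowest of all 14812 named genes. *MRPL2*, which lies close to the peptidyl transferase centre, was at -0.26 in siREG4 and 0.26 in siControl, a difference of -0.51 (1.43-fold lower). *MRPL14*, an interface protein that binds the anti-association factor MALSU1, was at -0.25 in siREG4 and 0.25 in siControl, which gave -0.49 (1.41-fold lower). *MALSU1* itself was at 0.04. Just outside the threshold lay *MRPL19*, another interface protein, at -0.47 (1.39-fold lower), *MRPS23* at -0.47 (1.38-fold lower) and *MRPL21* at -0.44 (1.36-fold lower). No gap separated the genes inside the threshold from those outside it.

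Among the other large subunit genes, *MRPL11*, which forms the base of the stalk where elongation factors bind, was at -0.43. *MRPL57*, a small protein of mitochondrial ribosomes only, was at -0.40, as was *MRPL4*, which reaches into the wall of the peptide exit tunnel in the bacterial ribosome. *MRPL46* and *MRPL17* were each at -0.33. These *MRPL* genes together with those above made up the lower end of the range.

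The upper end of the large subunit held a pair of genes that stood away from the rest. *MRPL45*, which anchors the ribosome to the inner membrane at the exit of the tunnel, was at 0.15 in the siREG4 array and -0.15 in the siControl array, a difference of 0.31 (1.24-fold higher). *MRPL55* was at 0.13 in siREG4 and -0.13 in siControl, a difference of 0.26. The next *MRPL* genes were much closer to 0, namely *MRPL33* (0.11), *MRPL22* (0.08), *MRPL32* (0.06), *MRPL9* (0.05), *MRPL47* (0.04) and *MRPL44* (0.03). The other 2 *MRPL* genes above 0 were *MRPL53* and *MRPL38*, at 0.01 each. *MRPL45* has close pseudogene copies that its probes may also read. Of these, *MRPL45P2* had a probe set of its own, at -0.04. The pseudogene *MRPL42P5* was at 0.17, whereas *MRPL42* was at -0.14, and probe sets can share signal between such copies.

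Of the 25 *MRPS* genes, 22 were below 0 and none passed 1.4-fold in either direction (0 genes). *MRPS23*, a protein of the small subunit that is found in mitochondria only, was the lowest, at -0.23 in the siREG4 array and 0.23 in the siControl array. *MRPS17*, whose bacterial relative binds the ribosomal RNA early in assembly, was at -0.40. They were followed by *MRPS18B* (-0.37), *MRPS28* (-0.36), *MRPS25* (-0.36), *MRPS9* (-0.34) and *MRPS26* (-0.34). At the other end, only *MRPS14* was above 0, at 0.10. *MRPS12* and *MRPS5* were listed at exactly 0 in both arrays, as were 3.45% of the named probe sets, and the sources used here do not say what such a 0 stands for. *MRPS12* encodes the decoding-centre protein whose bacterial relative carries streptomycin resistance mutations. *MRPS33* (-0.01), *MRPS22* (-0.02) and *MRPS27* (-0.02), an RNA-binding protein of the small subunit, completed the 6 highest.

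The large and small subunits were set side by side. The median difference was -0.17 over the 48 *MRPL* genes and -0.19 over the 25 *MRPS* genes, so the medians lay 0.02 apart. The differences had an SD across genes of 0.19 in the large subunit and 0.16 in the small subunit. *MRPL* genes ranged from -0.53 to 0.31 and *MRPS* genes from -0.47 to 0.10. At 1.2-fold, 13 *MRPL* and 9 *MRPS* genes were lower. Which subunit had the lower median depended on which genes were assigned to each and on the probe set taken per gene. *MRPS30* (-0.33) and *MRPS18A* (-0.22) carry small subunit names but were found in the large subunit when its structure was solved. With both moved there, the medians were -0.18 for 50 large subunit genes and -0.12 for 23 small subunit genes, and the order turned round.

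**Figure D2:**
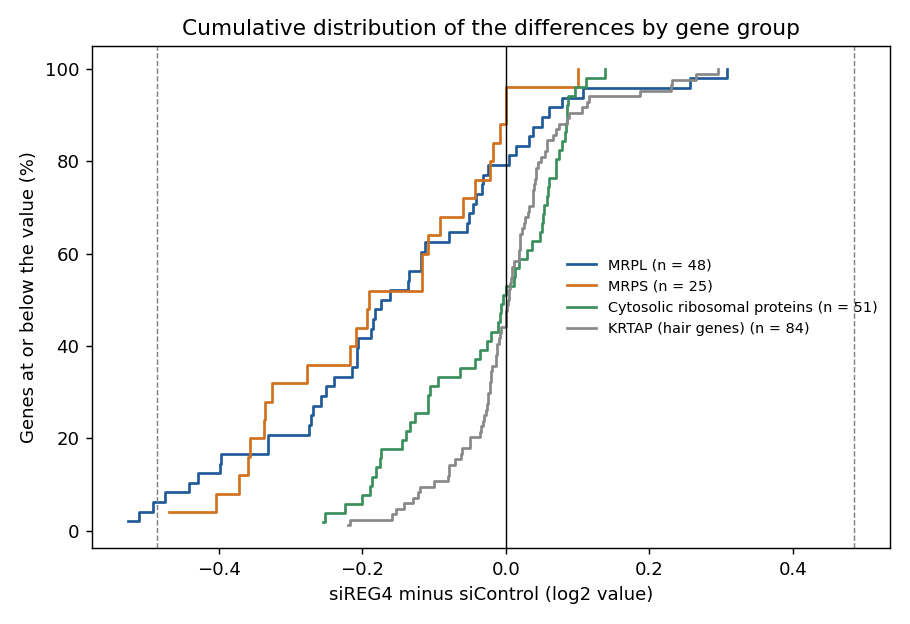
Share of genes (y axis, %) at or below each difference between the siREG4 and siControl arrays (log2 value, x axis), for *MRPL*, *MRPS*, cytosolic ribosomal protein and *KRTAP* genes, with dashed lines at 1.4-fold. The *MRPL* and *MRPS* curves cross each other and lie left of 0 for most of their length, while the other groups have medians of -0.0043 and 0.0044.

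The spread among genes that colon cells are not known to use gave a rough gauge of array noise. It came from 84 *KRTAP* genes, which encode keratin-associated proteins of hair, and covers dim probe sets only. Among the mitochondrial ribosomal protein genes, 25 lay below the lowest *KRTAP* gene (-0.22), 1 (*MRPL45*) lay above the highest (0.30), and 47 lay within the range. The 25 genes were 16 *MRPL* and 9 *MRPS* genes. Most members thus lay within the *KRTAP* range, but as a group they lay lower. The *KRTAP* genes had a median of 0.0044 and an SD of 0.09, against -0.17 and 0.18 for the members. All named genes had an SD of 0.19, so they too spread more widely than the *KRTAP* genes. The share of all named genes outside the *KRTAP* range was not counted. At 1.2-fold, 0 of the 84 *KRTAP* genes were lower and 2 higher, against 22 and 1 of the 73 members. For all named genes these shares were 7.04% and 5.95%.

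Proteins with a bacterial counterpart and proteins found in mitochondria only were compared within each subunit. In the large subunit, the 29 measured genes shared with bacteria had a median of -0.17 and the 19 of mitochondria only had a median of -0.14, and 23 and 15 of them were below 0. In the small subunit, the 13 genes shared with bacteria had a median of -0.11, with 10 below 0. All 9 small subunit genes of mitochondria only were below 0, from *MRPS23* (-0.47) to *MRPS33* (-0.01), with a median of -0.19. The ranges of both kinds overlapped widely in each subunit.

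By position in the ribosome, the members spread in different ways. Of the 6 genes listed for the central protuberance, a list that may not be complete, 5 were below 0 and the median was -0.23. They ran from *MRPL40* (-0.53) and *MRPL46* (-0.33) through *MRPL18* (-0.26), *MRPL58* (-0.21) and *MRPL48* (-0.19) to *MRPL38* (0.01). *MRPL58* encodes a peptidyl-tRNA hydrolase that is built into the ribosome. The 6 genes listed for the peptide exit tunnel had 3 below and 3 above 0 and a median of 0.0025. With *MRPL4* (-0.40), which the list leaves out, 4 of 7 were below 0 and the median was -0.03. The listed 6 ran from *MRPL17* (-0.33) and *MRPL24* (-0.18) through *MRPL23* (-0.03), *MRPL47* (0.04) and *MRPL22* (0.08) to *MRPL45* (0.31). Of the 3 measured stalk genes, *MRPL11* was at -0.43, *MRPL10* at -0.13 and *MRPL1* at -0.05. The 5 measured genes of the decoding centre and mRNA path had a median of -0.06 and lay between -0.11 (*MRPS2*) and the exact 0 listed for *MRPS5* and *MRPS12*, with *MRPS11* at -0.09 and *MRPS7* at -0.06.

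The *MRPS18* family arose by duplication of 1 ancestral gene, and its products occupy different places in the ribosome. *MRPS18B* was at -0.37 and *MRPS18A* at -0.22. *MRPS18B* was read by 7 probe sets, which ranged from -0.373 to -0.370. Several of them held identical values, so they are not separate readings. *MRPS16* was read by 2 probe sets, at -0.43 and -0.12, and its mean was -0.28. The 2 probe sets of *MRPS2* were at -0.17 and -0.04, and those of *MRPL44* at -0.02 and 0.09, on opposite sides of 0. The other 69 genes rested on 1 probe set each.

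Chromosomal position was read from RefSeq, and the 5 chromosomes with at least 6 members were described, a choice made after the values were seen. Over all chromosomes, 82.2% of the members were below 0, so small sets with every member below 0 can occur without a link to position. The share of all named genes below 0 on each chromosome was not counted, and a link to chromosome was not tested. All 6 members on chromosome 6 were below 0, with a median of -0.31, namely *MRPL2*, *MRPL14*, *MRPS18B*, *MRPL18*, *MRPS18A* and *MRPS10* (-0.19). All 7 members on chromosome 11 were below 0 too, with a median of -0.19, from *MRPL21* (-0.44) and *MRPL11* (-0.43) to *MRPL23* (-0.03). On chromosome 17, 5 of 7 members were below 0, from *MRPS23* (-0.47) to *MRPL45* (0.31), with a median of -0.11. On chromosome 1, 5 of 8 members were below 0, from *MRPL20* (-0.21) to *MRPL55* (0.26), with a median of -0.05. On chromosome 2, 4 of 8 members were below 0, from *MRPL19* (-0.47) to *MRPL33* (0.11), with a median of -0.01.

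RefSeq promoter sequences (GRCh38.p14, 250 bases before to 50 bases after each annotated start) were found for 65 of the 73 genes, in 81 windows. *MRPL2*, *MRPL10*, *MRPL13*, *MRPL15*, *MRPL21*, *MRPL23*, *MRPL35* and *MRPS28* had no entry. Letters known from binding by ETS factors such as GABP (CCGGAAG), by YY1 (AGATGGC), by NRF1 (GCGCA and GCGC with any 1 base between them) and by MYC family factors at an E-box (CACGTG) were searched on both strands. A match is a description of the letters and not a binding site. Matches picked from genes in the lower part of the range and from the highest gene are shown as examples of how the windows differ. Other matches were left out, such as NRF1 in *MRPL57* and the E-box in *MRPL14* and *MRPL45*. Sequences run 5′ to 3′ along the strand of the gene, with the match in capitals.
MRPL40, ETS, chr22:19432524-19432550, plus strand: gggcgcacgcCCGGAAGcggcgagggt
MRPS23, ETS (reverse complement), chr17:57850042-57850068, minus strand: ggagcagccgCTTCCGGttccggtagc
MRPL14, NRF1, chr6:44127412-44127441, minus strand: tgggcctggcGCGCAGGCGCtaggaagagg
MRPL46, YY1, chr15:88467363-88467389, minus strand: ggagaacgaaAGATGGCggcgcccgta
MRPS18B, YY1, chr6:30617854-30617880, plus strand: gcgtacgtcaAGATGGCggcgtctgta
MRPL45, YY1, chr17:38297172-38297198, plus strand: tgcgggaacaAGATGGCagcccccata
MRPL45, NRF1, chr17:38296969-38296998, plus strand: ttgtctccctGCGCACGCGCggccgtactc

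The ETS letters occurred in 39.5% of the members' 81 windows, against 10.3% of all 35116 windows and 12.8% of those of protein-coding genes. The YY1 letters occurred in 29.6% of the members' windows, against 5.41% of all windows and 5.79% of those of protein-coding genes. In 15 members the YY1 letters stood in the written direction within the 50 bases after the start, as in *MRPL46*, *MRPS18B* and *MRPL45* above. That was 18.5% of the members' windows, against 1.55% of all windows, and the share for protein-coding genes was not counted. The letters contain ATG, and whether a match covers a start codon was not checked. NRF1 letters occurred in 12.3% of the members' windows, 5.78% of all windows and 7.38% of those of protein-coding genes. For the E-box these shares were 9.88%, 7.26% and 8.34%. None of the 4 motifs was found in 16 of the 65 members, among them *MRPL19*, *MRPL11* and *MRPS17* near the lower end and *MRPL55* near the upper end.

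Members with and without a motif overlapped over most of their range. The 29 genes with the ETS letters had a median of -0.19 and the 36 without had -0.12. For YY1 the order was the other way, with a median of -0.12 over 22 genes with the letters and -0.17 over 43 without. The 9 genes with the NRF1 letters had a median of -0.21, against -0.13 for 56 without, and they included both *MRPL14* (-0.49) and *MRPL45* (0.31). The 8 genes with an E-box had a median of -0.08, against -0.17 for 57 without.

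**Figure D3:**
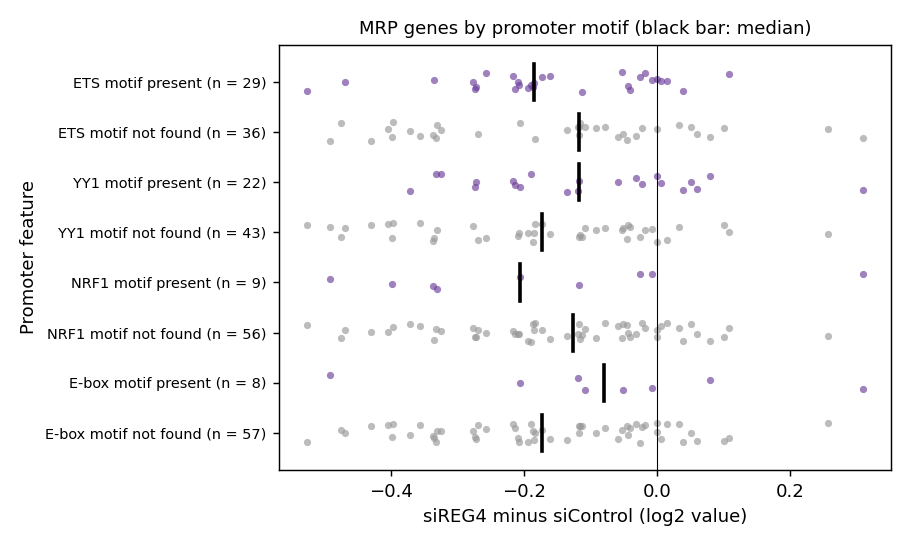
Difference between the siREG4 and siControl arrays (log2 value, x axis) of the 65 members with a RefSeq promoter, in rows by whether each of 4 motifs was present in a window. Each point is 1 gene and black bars are medians; points with and without each motif cover similar ranges, and *MRPL45* (0.31) is the right-most point in the rows with YY1, NRF1 and E-box matches.

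Of 9 listed factors known to act on genes of mitochondrial proteins, 4 were measured. *YY1*, a zinc finger transcription factor, was at -0.51 (1.42-fold lower). *MYC* was at -0.19, *NRF1* at -0.08 and *ESRRA*, a nuclear receptor of mitochondrial gene programmes, at -0.04. *YY1* was the 1 factor of these past 1.4-fold, where 1.67% of all named genes were lower. Its part in the differences of the members was not tested.

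Some proteins of the mitochondrial ribosome do not carry MRP names. Of 5 such genes, 3 were measured. *CHCHD1* was at -0.34, *PTCD3*, an RNA-binding protein of the small subunit, at -0.02, and *DAP3*, a GTP-binding protein of the small subunit, at 0.26. *DAP3* therefore lay above all 25 *MRPS* genes. The antisense transcript *MRPL20-AS1* was at -0.23, beside *MRPL20* at -0.21, and *MRPL23-AS1* was at 0.01, beside *MRPL23* at -0.03.

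Genes that assemble or serve the mitochondrial ribosome were then described, as lists that hold no member. Of 28 listed assembly genes, 24 were measured, with 15 below 0, a median of -0.07 and 0 past 1.4-fold in either direction. *ERAL1*, an RNA chaperone of the small subunit, was the lowest (-0.40), followed by *MRM3* (-0.38), an RNA methyltransferase of the large subunit rRNA. Its fellow methyltransferases *MRM1* and *MRM2* were at -0.34 and -0.26. The highest were *TRUB2*, a pseudouridine synthase, at 0.43, and *SPG7*, a subunit of the protease that processes MRPL32, at 0.13. Of 17 translation factors and related genes, 12 were measured, with a median of -0.11 and 0 past 1.4-fold. *SLIRP* (-0.43), which stabilises mitochondrial mRNA together with LRPPRC, and *TACO1* (-0.35), an activator of COX1 translation, were the lowest. *MTIF3* (0.09) and *GUF1* (0.15) were the highest.

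Charging of mitochondrial tRNA and expression of mitochondrial DNA were less well covered. Of 20 genes of tRNA charging, 2 were measured, *QRSL1* (-0.45) and *GATB* (-0.08), both subunits of the amidotransferase that makes glutaminyl-tRNA. Of 15 genes of mitochondrial DNA expression, 7 were measured, with a median of -0.12. *PNPT1*, the mitochondrial polynucleotide phosphorylase, was at -0.42 and the helicase *TWNK* at -0.25, whereas *MTERF1* was at 0.04 and *ELAC2* at 0.10. None of these passed 1.4-fold. Of 11 genes listed for the response to mitochondrial stress, 7 were measured. Higher past 1.4-fold were 2 of these 7, where 1.51% of all named genes passed. The 2 genes were *DDIT3* (0.58) and *ASNS* (0.54). The lowest were *ATF5* (-0.14) and the mitochondrial chaperonin *HSPD1* (-0.20). Between lay *ATF4* (0.07), *HSPA9* (0.11) and *TRIB3* (0.32). Whether these values reflect mitochondrial stress was not tested.

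The closest groups for comparison were other mitochondrial proteins and the ribosomal proteins of the cytosol. The median was -0.17 over the 73 mitochondrial ribosomal protein genes, against -0.14 over 23 mitochondrial import genes, -0.10 over 26 genes of respiratory complexes III and IV and ATP synthase and -0.0043 over 51 cytosolic ribosomal protein genes. Below 0 were 82.2% of the mitochondrial ribosomal protein genes, against 69.6% of the import genes, 69.2% of the complex III, complex IV and ATP synthase genes and 51.0% of the cytosolic ribosomal protein genes. These 26 genes were mostly of complexes III and IV, with 3 ATP synthase genes, and included isoforms used in few tissues, such as *COX8C* (-0.01) and *COX4I2* (0.11). The cytosolic and import lists likewise held paralogs, such as *RPL10L* (-0.01), *RPL39L* (0.14) and *TOMM20L* (0.01). The symbol search also covered complexes I and II and found no gene of either, so these complexes are not described. At 1.2-fold, where 7.04% of all named genes were lower, 22 of the 73 mitochondrial ribosomal protein genes were lower, against 4 of the 23 import genes, 5 of the 26 complex III, complex IV and ATP synthase genes and 0 of the 51 cytosolic ribosomal protein genes. Lower past 1.4-fold were 3 of the 73 mitochondrial ribosomal protein genes, against 1 of the 23 import genes (*TOMM5*, -0.60), 2 of the 26 complex III, complex IV and ATP synthase genes (*COX5A* and *CYC1*) and 0 of the 51 cytosolic ribosomal protein genes. The spread across genes was wider in mitochondrial ribosomal proteins (SD 0.18) than in cytosolic ones (SD 0.11). It was close to that of all named genes (SD 0.19). The SD was 0.21 in the import genes and 0.18 in the complex III, complex IV and ATP synthase genes. Genes of 1 group are not replicates, so these gaps were not tested.

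**Figure D4:**
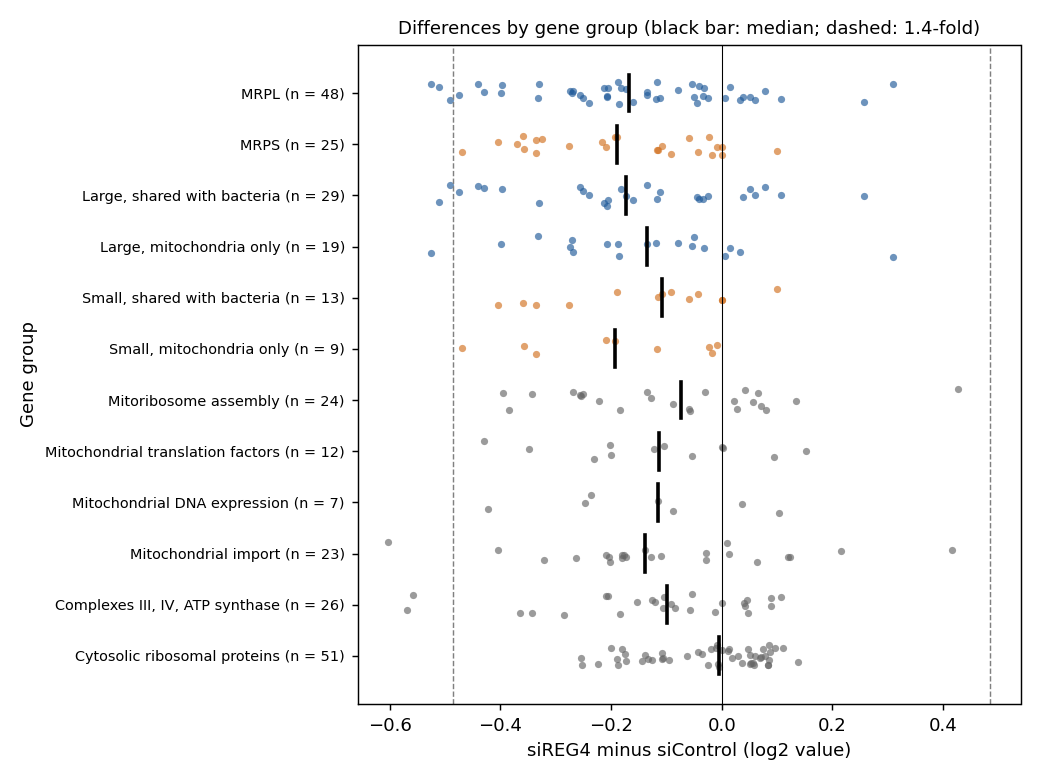
Difference between the siREG4 and siControl arrays (log2 value, x axis) by gene group, with 1 point per gene, black bars at the medians and dashed lines at 1.4-fold. *MRPL* and *MRPS* and their classes are at the top with medians from -0.19 to -0.11, and cytosolic ribosomal proteins at the bottom with a median of -0.0043.

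Markers of other cell types were measured in the same arrays. All 5 measured fibroblast and endothelial markers lay between -0.05 and 0.03. Of 5 immune markers 1 was lower past 1.4-fold, where 1.67% of all named genes passed. It was *CD68* (-0.75), which encodes a lysosomal protein, and the others lay between 0.01 and 0.13. The 8 colon epithelium markers ran from *CDX2* (-0.26) to *KRT20* (0.54), with a median of -0.03. Of these, *KRT20* was higher past 1.4-fold, where 1.51% of all named genes passed. Their part in the differences of the mitochondrial ribosomal protein genes was not tested.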

How the data were processed

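Per the labels and the methods of the study, total RNA of HT29 cells was hybridised to Affymetrix Human Gene 2.0 ST arrays, which were evaluated in GeneSpring. The authors deposited 1 table of log2 values for 44629 probe sets, whose 2 columns sum to 0 within 1e-06. The log base was taken as 2, and the sources used here do not give the background correction, summarization or filters. A platform annotation gave 15835 probe sets 1 symbol each, 82 of them to mitochondrial ribosomal protein genes. Probe sets were averaged per gene. The siREG4 minus siControl difference was described by counts, medians and ranges, with no test. The number of arrays limits the precision. Members and lists were chosen with earlier results of these data known; the placing of *MRPS28* among proteins shared with bacteria was corrected after the values were seen. The comparison lists (cytosolic ribosomal, complex III and IV with ATP synthase, import and *KRTAP* genes) were taken by symbol. Named were all genes past 1.4-fold, the 8 lowest and 8 highest *MRPL*, the 6 lowest and 6 highest *MRPS* and the ends of the lists of mitochondrial translation, and others after their values were seen. Python 3.11.15, numpy 2.4.6, pandas 2.3.3 and matplotlib 3.10.9 were used.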

Additional observations from a re-analysis of the deposited data

How the results depend on the processing

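Over the alternatives that kept the 1.4-fold threshold, the *MRPL* median stayed between -0.18 and -0.15, and 3 genes were lower and 0 higher past 1.4-fold. Below 0 lay 57 genes with genes of 1 probe set only (47 *MRPL*, 22 *MRPS*) and 62 with proteins of other symbols added (48 and 28). Several alternatives could hardly move these values. Centring the columns on their medians left them unchanged, and quantile normalization gave an *MRPL* median of -0.16. *MRPL44* was the only *MRPL* gene with several probe sets. The *MRPS* median moved to -0.12 with the first probe set per gene, which sets *MRPS16* at -0.12, and also to -0.12 with *MRPS18A* and *MRPS30* counted in the large subunit. The *MRPL* median minus the *MRPS* median, 0.0228 as reported, was -0.0447 with the first probe set per gene, -0.0195 with genes of 1 probe set only, -0.0607 with *MRPS18A* and *MRPS30* in the large subunit, -0.0136 with proteins of other symbols added and 0.0417 with pseudogenes included. It was above 0 as reported and with pseudogenes included, and below 0 under the other 4 of these settings. A 2-fold threshold left 0 lower genes, and a 1.2-fold threshold gave 22 lower and 1 higher. Leaving out values of exactly 0 was chosen after seeing the data. No paired analysis was possible because each group has 1 array, and no replicate could be left out. Since the values hold no signal level, small differences of dim and bright genes cannot be told apart.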
